A study of Homo sapiens with 6 samples.

Results

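Collagen processing and matrix remodelling enzymes are the proteins that modify collagen chains inside the cell, trim and crosslink them outside it, and cut or protect the finished matrix. The genes were selected by a symbol pattern: lysyl oxidases, prolyl and lysyl hydroxylases, collagen chaperones, procollagen proteinases and their enhancers, matrix metalloproteinases (MMPs), tissue inhibitors of metalloproteinases (TIMPs), ADAMTS proteases, ADAMTS-like proteins and plasminogen activators. The count table held 75 such genes among 61155 symbols, and 60 of the 75 had enough reads to be tested. Their mRNA was measured by bulk RNA sequencing in undifferentiated H7 human embryonic stem cells (hESCs), an established cell line grown without feeder cells on Matrigel, a basement membrane extract, in TeSR-E8 medium. The comparison was between 3 wild-type (WT) libraries and 3 libraries of S6K1-/- cells, in which CRISPR/Cas9 had been aimed at exons 9 and 11 of RPS6KB1, the gene of the growth-signalling kinase S6K1. All S6K1-/- libraries came from 1 clone, so the genotype and the clone cannot be told apart. Nothing in the sources says that the libraries of a group were separate cultures, so the p-values measure only the spread between these libraries, which may be technical. The labels also name week 5 and a knockdown for these samples, whereas the methods describe undifferentiated knockout cells.

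A collagen chain is hydroxylated on prolines and lysines in the endoplasmic reticulum, folded into a triple helix with the help of chaperones and secreted as procollagen. Outside the cell, N- and C-proteinases remove the propeptides, lysyl oxidases start the crosslinks between fibrils, and MMPs, ADAMTS proteases and plasmin cut collagens and proteoglycans, with TIMPs as inhibitors. Stem cells in culture secrete and remodel the matrix on which they attach, and several of these enzymes also release growth factors held in it.

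The libraries held from 21896698 to 24473013 counts, and a count of 0 allowed a level of up to 0.122 to 0.138 CPM (counts scaled to library size), counting error only. RPS6KB1 itself was at 33.3 ± 0.994 CPM in WT and 19.8 ± 0.371 CPM in S6K1-/- cells (mean ± SD, n = 3 here and throughout), a log2 fold change of -0.75 (SE 0.057, adjusted p = 2.52e-07 in edgeR's quasi-likelihood test). The 8 pluripotency markers checked were all measured and none passed an adjusted p of 0.001. POU5F1 differed by -0.04 (SE 0.055, adjusted p = 0.733), whereas the groups did not overlap for ZFP42 (0.17, adjusted p = 0.00874), TDGF1 (-0.15, adjusted p = 0.0308), PODXL (-0.11, adjusted p = 0.107) and DPPA4 (-0.05, adjusted p = 0.449). Of 10 mesenchyme and fibroblast markers, 5 (TWIST1, PRRX1, DCN, LUM and MEOX1) had at most 3 counts in every library, whereas PDGFRB was lower in S6K1-/- cells (7.90 against 3.11 CPM, log2 fold change -1.34). The summed level of the 8 amnion and trophoblast markers was 5.68 to 7.24 CPM in WT and 3.77 to 4.22 CPM in S6K1-/- libraries, with HAND1, ISL1, CGA and CDX2 at 3 counts or fewer everywhere. Most of this sum was KRT7 (5.03 and 2.84 CPM, log2 difference -0.82, adjusted p = 0.00103), and GATA3, the only other tested marker of the list, differed by -0.18 (adjusted p = 0.748) with overlapping groups. The summed mesenchyme markers ranged from 485 to 509 CPM in WT and from 476 to 497 CPM in S6K1-/- libraries, almost all of it THY1 (488 and 480 CPM on average), so the sum does not show the other markers, among which POSTN differed by -0.53 (adjusted p = 0.168) and PDGFRA by 0.17 (adjusted p = 0.633), both with overlapping groups. The mesendoderm and endoderm markers summed to 18.8 to 23.0 and 17.6 to 18.9 CPM and none passed the threshold, but their members went different ways. MIXL1, the most abundant, differed by 0.24 (adjusted p = 0.0449), whereas FOXA2 (-0.88, adjusted p = 0.00108), CXCR4 (-1.26, adjusted p = 0.0235), EOMES (-0.74, adjusted p = 0.138) and GATA4 (-0.64, adjusted p = 0.0894) each had every S6K1-/- library below every WT library. SOX17 and GATA6 had at most 3 counts in every library. The neuroectoderm markers summed to 479 to 502 and 470 to 489 CPM, mostly NES (442 and 424 CPM), and PAX6 among them rose (4.47 to 7.58 CPM, log2 fold change 0.76, adjusted p = 2.69e-04). Of the others, SOX1 differed by 1.29 (adjusted p = 0.0174) on 6 to 17 counts, SIX3 by 0.15 (adjusted p = 0.179) and ZIC1 by -0.14 (adjusted p = 0.238), and OTX1, not tested, had 13, 14 and 7 counts in WT and 2, 1 and 2 in S6K1-/- libraries. The part of such cells in the results was not tested, and in bulk RNA fewer cells of a type and less RNA per cell cannot be told apart.

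Of the 60 genes tested, 7 fell in S6K1-/- cells (PCOLCE, MMP24, ADAMTS4, LOX, PLAU, ADAMTS15 and TIMP1) and 1 rose (MMP2) at an adjusted p below 0.001, the study's threshold. Benjamini-Hochberg adjustment was over all 19521 genes tested by edgeR's quasi-likelihood test. The 7 are 11.7% of the members, beside 2.54% of all genes tested that were lower, and the 1 is 1.67%, beside 1.42% that were higher. Leaving out any 1 of the 6 libraries left 3 to 4 members lower and 0 to 1 higher, with PCOLCE, MMP24 and ADAMTS4 lower each time. With the replicate number as a block in the model, 4 members were lower and 0 higher, beside 423 and 241 of all genes. At an adjusted p below 0.05, 21 members were lower (35.0%, beside 8.31% of all genes) and 5 higher (8.33%, beside 5.47%). For 27 members every S6K1-/- library was below every WT library (45.0%, beside 16.7%), and for 11 every one was above (18.3%, beside 14.0%). The log2 fold changes ran from -1.05 to 0.40 with a median of -0.16, while the median of all genes tested was -0.002, and 42 members lay below 0 and 18 above. The summed level per exon length was 452 ± 8.43 RPKM (CPM per kilobase of exon) in WT and 437 ± 3.17 in S6K1-/- cells. The change of each member by role is drawn in the plot of log2 fold changes.

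**Figure D1:**
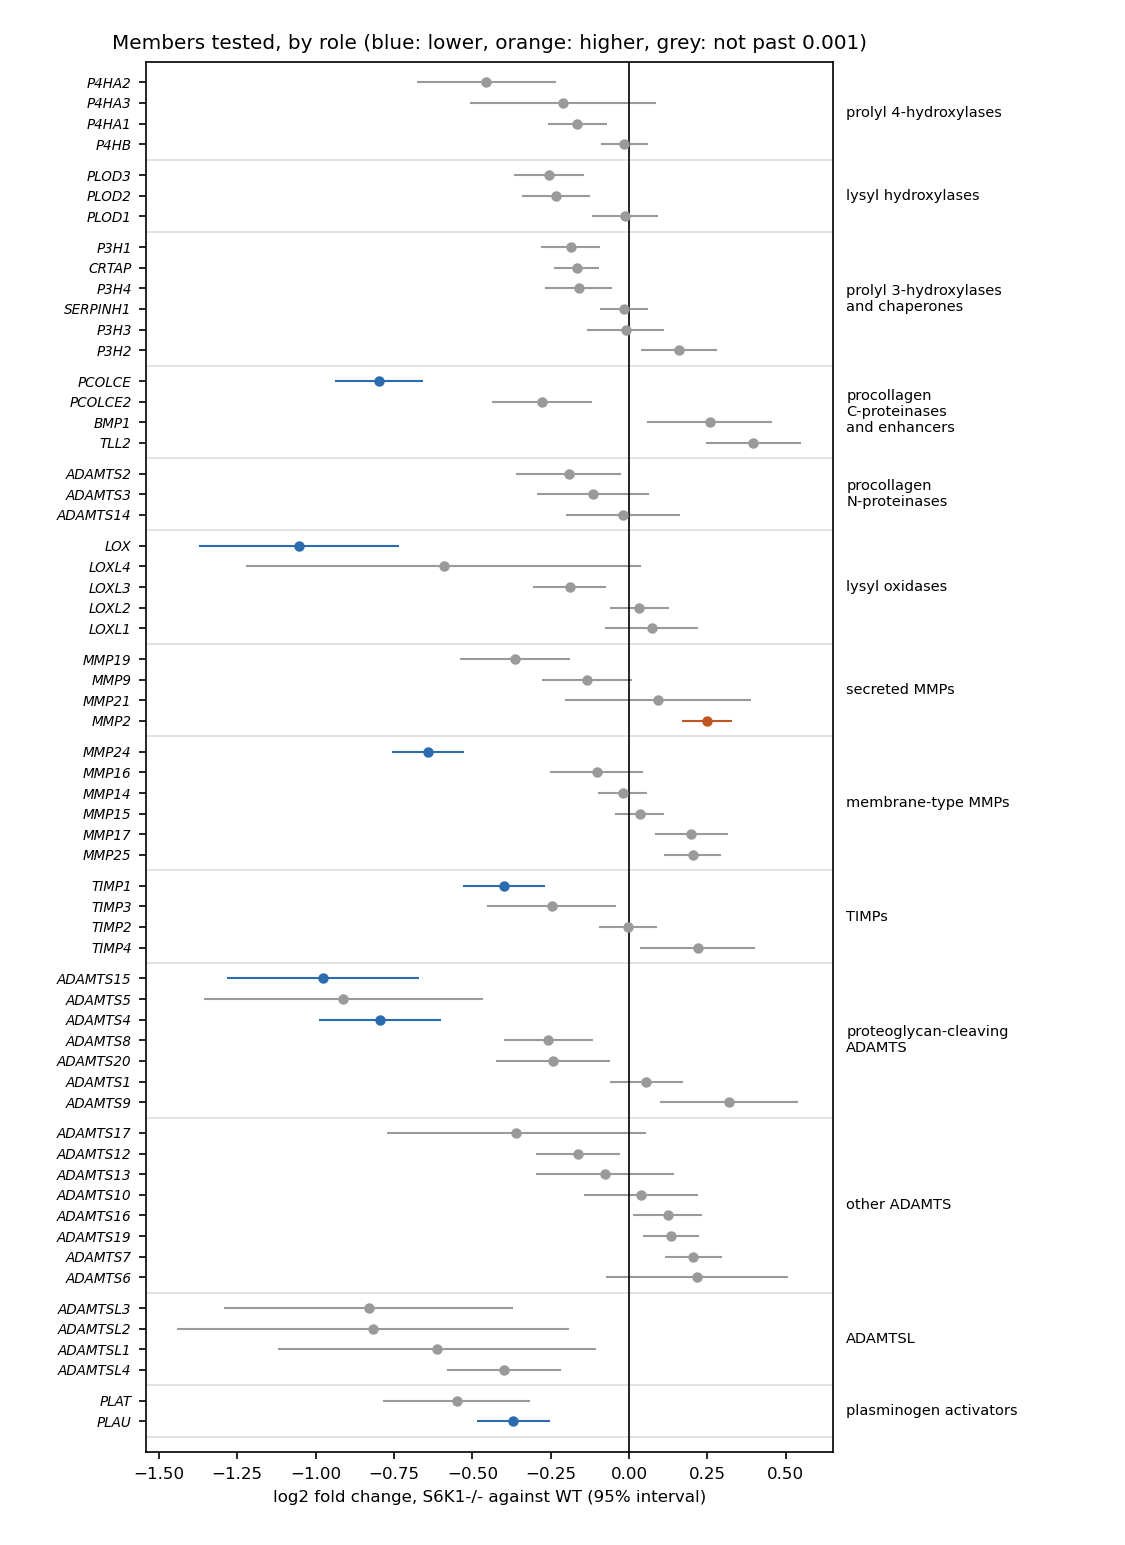
Log2 fold change of S6K1-/- against WT (horizontal axis) for the 60 members tested, grouped by role on the vertical axis, with points for estimates, lines for 95% intervals, blue for genes lower and orange for genes higher at an adjusted p below 0.001. The 7 blue genes lie between -0.37 and -1.05, and all 4 tested ADAMTS-like genes lie below 0 without passing the threshold.

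Promoter sequence is shown for 4 of the fallen genes, those whose promoter entry holds bases outside annotated exons. PCOLCE acts in propeptide removal, LOX in crosslinking, MMP24 in cleavage and TIMP1 in inhibition. PLAU is not shown, because the 250 bases before each of its starts lie wholly in annotated exons. Each stretch precedes the RefSeq transcript start on GRCh38.p14 and leaves out annotated exons, and capitals mark matches to the motifs searched on both strands. The stretches are PCOLCE chr7:100602113-100602339 on the plus strand, MMP24 chr20:35226440-35226689 on the plus strand, TIMP1 chrX:47582186-47582407 on the plus strand and LOX chr5:122078414-122078509 on the minus strand.
PCOLCE: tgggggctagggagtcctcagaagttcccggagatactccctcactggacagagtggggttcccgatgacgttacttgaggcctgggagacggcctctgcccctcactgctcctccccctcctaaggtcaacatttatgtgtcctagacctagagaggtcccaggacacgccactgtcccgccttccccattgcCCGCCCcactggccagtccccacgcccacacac
MMP24: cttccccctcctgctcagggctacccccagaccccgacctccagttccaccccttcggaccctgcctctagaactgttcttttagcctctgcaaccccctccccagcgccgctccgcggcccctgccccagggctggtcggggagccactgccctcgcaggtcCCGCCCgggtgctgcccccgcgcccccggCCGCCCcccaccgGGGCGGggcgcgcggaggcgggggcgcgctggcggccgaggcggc
TIMP1: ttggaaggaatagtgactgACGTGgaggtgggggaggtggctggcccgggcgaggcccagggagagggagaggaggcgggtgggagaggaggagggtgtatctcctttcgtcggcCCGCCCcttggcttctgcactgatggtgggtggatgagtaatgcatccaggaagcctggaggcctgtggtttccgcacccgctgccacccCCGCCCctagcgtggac
LOX: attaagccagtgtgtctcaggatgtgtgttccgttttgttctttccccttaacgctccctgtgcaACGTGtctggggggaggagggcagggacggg
In these stretches, CCGCCC or GGGCGG is the GC box bound by Sp family factors and ACGTG is the core of a hypoxia response element. Tested members had 48 promoter windows, each the 250 bases before a start, and a gene with several starts counts once per window. Of these windows, 70.8% held GGGCGG, beside 42.6% of all 35116 windows. The windows of all members, tested or not, had a median GC content of 68.0%, beside 58.0% for all promoters. ACGTG was in 27.1% of the tested members' windows, all 3 LOX windows among them, and in 18.5% of all. The first of the 3 LOX windows held 4 matches, at 185, 116, 98 and 42 bases before the start. The stretch shown holds the one at 185, the other 3 lie in annotated exons, and the other windows, from later starts, hold 1 match each. TATAAA, the TATA box, was in 10.4% of the tested members' windows and 10.7% of all. TGANTCA, the AP-1 site, was in 2.08% and 6.57%, and GGAATG, the TEAD site, in 8.33% and 11.9%. A match of letters is a description and was not tested as a binding site.

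Of the 13 enzymes and chaperones of the endoplasmic reticulum, none passed the threshold of 0.001, 6 were lower at 0.05 (beside 8.31% of all genes tested), and 12 of the 13 estimates lay below 0 (beside 9879 of 19521 genes), in a range of -0.46 to 0.16. SERPINH1, the collagen chaperone HSP47, had the highest level per length of all members and stood at 89.4 ± 1.55 RPKM in WT and 88.4 ± 1.68 RPKM in S6K1-/- cells, a log2 fold change of -0.02 with a 95% interval of -0.09 to 0.06. P4HB, the shared beta subunit of the prolyl 4-hydroxylases and a protein disulfide isomerase, was at 32.6 and 32.3 RPKM, with an interval of -0.09 to 0.06.

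The catalytic alpha subunits of prolyl 4-hydroxylase stabilise the triple helix by hydroxylating prolines. P4HA1, the most abundant, had 1457, 1639 and 1441 counts in WT and 1295, 1362 and 1221 in S6K1-/- libraries, a log2 difference of -0.17 (SE 0.048, adjusted p = 0.0309). P4HA2 had 209, 273 and 213 counts against 149, 189 and 148, a difference of -0.46 (SE 0.113, adjusted p = 0.0134), the largest of the enzymes of the endoplasmic reticulum. The groups did not overlap in CPM for either gene, and neither passed 0.001. P4HA3 was scarce (0.935 and 0.806 RPKM) and its groups overlapped.

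Lysyl hydroxylases make the hydroxylysines that carry sugars and crosslinks. PLOD3, which also transfers sugars, differed by -0.25 (SE 0.057, adjusted p = 0.00735), and PLOD2, which acts on the telopeptides where crosslinks form, by -0.23 (SE 0.055, adjusted p = 0.00982). PLOD1, which acts on the helix, differed by -0.01, with an interval of -0.12 to 0.09. In the prolyl 3-hydroxylase complex, its non-enzymatic partner CRTAP differed by -0.17 (SE 0.037, adjusted p = 0.00649) and the enzyme P3H1 by -0.19 (SE 0.048, adjusted p = 0.0174). P3H4, a partner of the lysyl hydroxylases, differed by -0.16 (adjusted p = 0.0672), P3H3 by -0.01 and P3H2 by 0.16 (adjusted p = 0.107). The fitted levels of PLOD2, PLOD3, CRTAP, P3H1 and P3H4 were 10.5% to 16.2% lower.

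PCOLCE fell, with the smallest adjusted p of the members. It encodes a secreted glycoprotein that binds the C-propeptide of fibrillar procollagens and speeds its removal, and it lies on chromosome 7 from 100602363 to 100608175 on the plus strand (GENCODE 44, GRCh38). PCOLCE was at 31.1, 32.4 and 27.7 CPM in WT and at 16.9, 18.5 and 17.0 CPM in S6K1-/- libraries. The lowest WT library lay well above the highest S6K1-/- library, and the log2 fold change was -0.80 (SE 0.071, adjusted p = 1.49e-06), a fitted level 42.5% lower. The call held without each library in turn. PCOLCE shares 562 exonic bases, 16.8% of its length, with the antisense gene PCOLCE-AS1, which fell by more (-1.21, SE 0.097, adjusted p = 5.02e-07), from 258, 265 and 221 counts to 98, 108 and 102. The strand setting of the counting is not given in the sources used here, so reads of the pair in the shared bases cannot be told apart.

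None of the other genes of propeptide removal passed the threshold. TLL2, a tolloid-like C-proteinase, had 223, 218 and 201 counts in WT and 265, 281 and 264 in S6K1-/- libraries, and its log2 difference of 0.40 was the highest of the members (SE 0.078, adjusted p = 0.00277). BMP1, the main procollagen C-proteinase, had 278, 259 and 197 counts against 271, 314 and 256, a difference of 0.26 (SE 0.102, adjusted p = 0.115). PCOLCE2, the second enhancer, differed by -0.28 (SE 0.082, adjusted p = 0.0339). TLL1 was not tested, with 17, 9 and 14 counts against 9, 1 and 2. Within this class PCOLCE held 63.1% ± 1.06 of the summed RPKM in WT and 49.1% ± 0.675 in S6K1-/- cells, while BMP1 went from 9.94% ± 0.910 to 16.1% ± 0.476 and TLL2 from 7.59% ± 0.395 to 13.5% ± 0.611. The shares of these 3 genes did not overlap between the groups. Neither did that of PCOLCE2, at 18.9% ± 0.851 in WT and 21.05% ± 0.473 in S6K1-/- cells, although its level differed by -0.28. The shares were not tested, and a share of one gene moves with the others. The procollagen N-proteinases ADAMTS2, ADAMTS3 and ADAMTS14, which remove the other propeptide, differed by -0.19 (adjusted p = 0.161), -0.12 (adjusted p = 0.472) and -0.02 (adjusted p = 0.925), and the groups of all 3 overlapped.

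**Figure D2:**
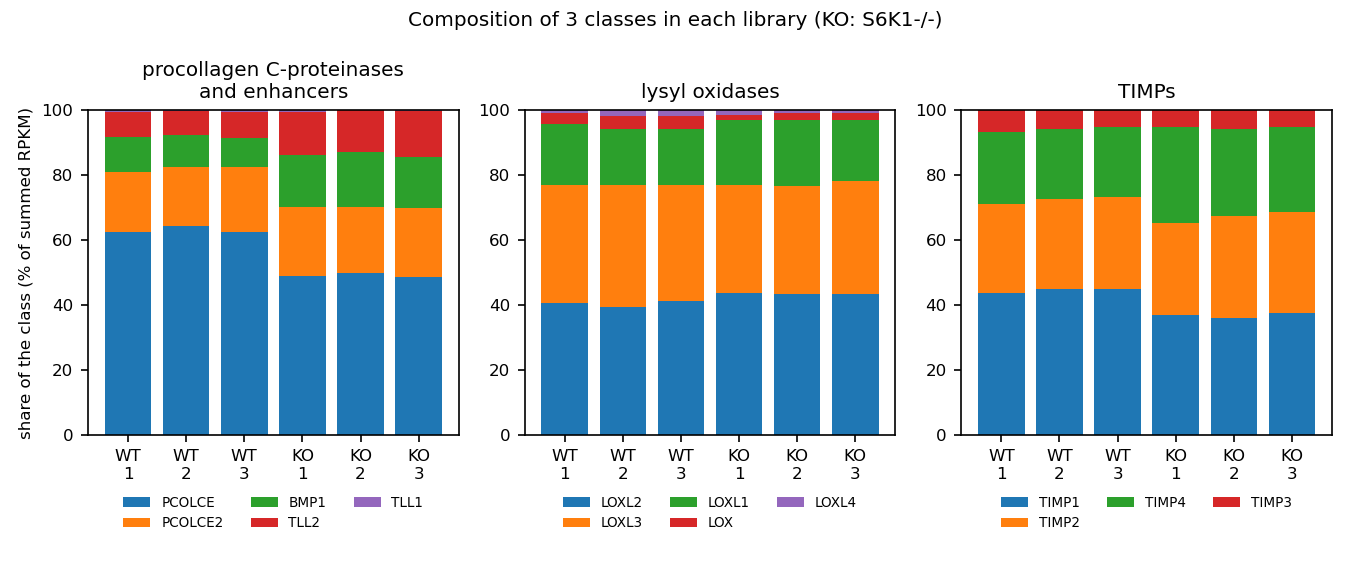
Share of each gene in the summed RPKM of its class (vertical axis, percent) in each of the 6 libraries (horizontal axis, KO for S6K1-/-), for the procollagen C-proteinases and enhancers, the lysyl oxidases and the TIMPs, with 1 stacked bar per library and colours for genes. The share of PCOLCE lay between 62.5% and 64.3% in WT and between 48.5% and 49.8% in S6K1-/- libraries, and that of TIMP1 between 43.8% and 45.0% and between 36.0% and 37.6%.

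LOX had the lowest estimate of all members tested. Lysyl oxidase oxidises lysines of collagen and elastin so that crosslinks can form, and its gene lies on chromosome 5 from 122063195 to 122078413 on the minus strand. LOX was at 2.999, 3.58 and 3.62 CPM in WT and at 1.41, 1.71 and 1.79 CPM in S6K1-/- libraries. The groups were far apart, with a log2 fold change of -1.05 (SE 0.162, adjusted p = 3.70e-04), a fitted level 51.8% lower. The counts were low, at 73, 88 and 84 against 33, 41 and 39, and 138 exonic bases are shared with SRFBP1 on the other strand (0.07, adjusted p = 0.568). With 1 library left out, the adjusted p lay between 5.78e-04, without WT replicate 1, and 0.00313, and it passed 0.001 only in the former.

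The 4 LOX-like genes are paralogs with the same catalytic activity, and none of them passed the threshold. LOXL2, the most abundant of the family at 6.52 and 6.67 RPKM, differed by 0.03 with an interval of -0.06 to 0.13, and LOXL1, linked to elastic fibres, by 0.07 (adjusted p = 0.609). LOXL3 differed by -0.19 (SE 0.059, adjusted p = 0.0465). LOXL4, with 10 to 26 counts in each library, differed by -0.59 with an interval of -1.22 to 0.04. LOX was only 3.75% ± 0.335 of the family's summed RPKM in WT and 1.90% ± 0.234 in S6K1-/- cells, and the sum went from 16.2 ± 0.335 to 15.4 ± 0.118 RPKM.

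Most secreted MMPs were hardly detected. Of 16, 12 had at most 3 counts in every library and were not tested: the collagenases MMP1, MMP8 and MMP13, the stromelysins MMP3 and MMP10, the matrilysins MMP7 and MMP26, and MMP11, MMP12, MMP20, MMP27 and MMP28. No count at all was found for MMP7, MMP8, MMP11, MMP20 and MMP27. MMP2, gelatinase A, which cuts denatured and basement membrane collagen and lies on chromosome 16 from 55389700 to 55506691 on the plus strand, was the most abundant. It was at 66.2, 67.4 and 63.8 CPM in WT and at 78.4, 78.0 and 78.2 CPM in S6K1-/- libraries. All S6K1-/- libraries were above all WT libraries, and the log2 fold change was 0.25 (SE 0.041, adjusted p = 6.03e-04), a fitted level 18.9% higher. MMP2 shares 174 exonic bases with an unnamed gene on the same strand. Without 1 library the adjusted p lay between 5.28e-04, without WT replicate 2, and 0.00466, and it passed 0.001 only in the former. MMP9, gelatinase B, differed by -0.13 (SE 0.073, adjusted p = 0.270), MMP19 by -0.36 (SE 0.090, adjusted p = 0.0131) and MMP21 by 0.09 (adjusted p = 0.761). MMP2 made up 63.2% ± 0.506 of the summed RPKM of the secreted MMPs in WT and 69.4% ± 0.751 in S6K1-/- cells.

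The 6 membrane-type MMPs are held at the cell surface, where MMP14 is the main activator of proMMP2. MMP24 fell, and it lies on chromosome 20 from 35226690 to 35276998 on the plus strand. MMP24 was at 36.0, 36.6 and 33.3 CPM in WT and at 22.02, 22.9 and 23.1 CPM in S6K1-/- libraries. The groups were separated by more than the spread within either, with a log2 fold change of -0.64 (SE 0.059, adjusted p = 2.13e-06), a fitted level 35.9% lower, and the call held without each library in turn. MMP24 shares 806 exonic bases with the antisense gene MMP24OS, whose own log2 difference was -0.14 (SE 0.070, adjusted p = 0.221).

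MMP14 was the most abundant of the membrane-type MMPs, at 27.8 ± 0.876 RPKM in WT and 27.4 ± 0.357 RPKM in S6K1-/- cells, and its log2 difference of -0.02 had an interval of -0.10 to 0.06. MMP15 differed by 0.03 and MMP16 by -0.10, with overlapping groups. The glycosylphosphatidylinositol-anchored members differed in the other direction, MMP25 by 0.20 (SE 0.047, adjusted p = 0.00874) and MMP17 by 0.20 (SE 0.060, adjusted p = 0.0378), and neither passed 0.001. MMP25 shares 1454 exonic bases, 30.6% of its length, with MMP25-AS1, which differed by the same 0.20 (SE 0.045, adjusted p = 0.00595). The sum of the class was 91.1 ± 2.18 RPKM in WT and 92.3 ± 1.66 in S6K1-/- cells.

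Among the inhibitors, TIMP1 fell. TIMP1, an inhibitor of most secreted MMPs, lies on chromosome X from 47582408 to 47586789 on the plus strand. It was at 19.6, 21.6 and 20.1 CPM in WT and at 16.1, 15.1 and 15.2 CPM in S6K1-/- libraries. The groups did not overlap, and the log2 fold change was -0.40 (SE 0.067, adjusted p = 7.67e-04), a fitted level 24.2% lower. Without 1 library the adjusted p rose to between 0.00166 and 0.00716, so the call was lost whichever library was left out. TIMP2, the inhibitor that also takes part in proMMP2 activation, differed by -0.003 with an interval of -0.10 to 0.09. TIMP3, which binds the matrix and inhibits ADAMTS proteases, differed by -0.25 (SE 0.105, adjusted p = 0.147), and TIMP4 by 0.22 (SE 0.093, adjusted p = 0.147). TIMP1 remained the most abundant TIMP, with 44.5% ± 0.658 of the summed RPKM in WT and 36.8% ± 0.780 in S6K1-/- cells.

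The 7 proteoglycan-cleaving ADAMTS proteases cut aggrecan and versican. ADAMTS4 (chromosome 1 from 161184302 to 161199054 on the minus strand) was at 9.24, 9.03 and 8.39 CPM in WT and at 5.49, 5.26 and 4.59 CPM in S6K1-/- libraries. It fell by 0.79 on the log2 scale (SE 0.099, adjusted p = 5.13e-05), and the call held without each library in turn. ADAMTS15 (chromosome 11 from 130448645 to 130476645 on the plus strand) was at 4.60, 4.39 and 4.35 CPM in WT and at 1.70, 2.38 and 2.71 CPM in S6K1-/- libraries. It fell by 0.98 (SE 0.156, adjusted p = 5.19e-04), and its S6K1-/- libraries were more spread than those of WT. Without 1 library its adjusted p lay between 7.21e-04, without S6K1-/- replicate 3, and 0.00287, and it passed 0.001 only in the former. ADAMTS5, the other main aggrecanase, had 44, 56 and 63 counts in WT and 19, 35 and 29 in S6K1-/- libraries, a difference of -0.91 (SE 0.228, adjusted p = 0.0140) that did not pass 0.001. The more abundant ADAMTS8 (3.67 and 3.07 RPKM) differed by -0.26 (adjusted p = 0.0266) and ADAMTS1 (3.69 and 3.83 RPKM) by 0.05 (adjusted p = 0.620). ADAMTS20 differed by -0.24 (adjusted p = 0.104). ADAMTS9, with 132, 108 and 126 counts against 146 in each S6K1-/- library, differed by 0.32 (SE 0.112, adjusted p = 0.0752).

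The remaining ADAMTS genes included the most abundant proteases of the family and none passed the threshold, with a median log2 difference of 0.08 over the 8 tested. ADAMTS7, which cuts cartilage oligomeric matrix protein, differed by 0.20 (SE 0.046, adjusted p = 0.00748), from 13.1 to 15.1 RPKM. ADAMTS19 differed by 0.13 (SE 0.046, adjusted p = 0.0664) and ADAMTS12 by -0.16 (SE 0.068, adjusted p = 0.136). ADAMTS13, the protease of von Willebrand factor, differed by -0.08, ADAMTS10 by 0.04, ADAMTS16 by 0.12, ADAMTS6 by 0.22 and ADAMTS17 by -0.36, with adjusted p-values of 0.174 to 0.842. ADAMTS18, with 1 to 10 counts in each library, was not tested.

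ADAMTS-like proteins resemble ADAMTS proteases without the protease domain, and several bind fibrillin. Their median log2 difference, -0.71, was the lowest of the 13 role classes, on few counts. ADAMTSL4 had 207, 208 and 191 counts in WT and 144, 166 and 131 in S6K1-/- libraries, a difference of -0.40 (SE 0.093, adjusted p = 0.00891). ADAMTSL3 had 40, 35 and 33 counts against 25, 14 and 19, a difference of -0.83 (SE 0.236, adjusted p = 0.0285). These are the better measured members of the class, and neither passed 0.001. ADAMTSL2 differed by -0.82 (SE 0.319, adjusted p = 0.111) and ADAMTSL1 by -0.61 (SE 0.259, adjusted p = 0.141). ADAMTSL5 was not tested, at 15, 13 and 8 counts against 5, 2 and 6. The summed level of the class was 1.84 ± 0.0674 RPKM in WT and 1.27 ± 0.0259 in S6K1-/- cells.

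Plasminogen activators turn plasminogen into plasmin, which cuts fibrin and matrix and activates proMMPs. PLAU, urokinase, lies on chromosome 10 from 73909177 to 73917496 on the plus strand. It was at 26.1, 26.5 and 27.2 CPM in WT and at 20.9, 19.8 and 21.1 CPM in S6K1-/- libraries. The groups did not overlap and PLAU fell by 0.37 on the log2 scale (SE 0.059, adjusted p = 5.14e-04), a fitted level 22.6% lower. Without 1 library the adjusted p was between 0.00131 and 0.00459, above the threshold in each case, and PLAU shares 915 exonic bases with the antisense gene C10orf55 (-0.29, SE 0.101, adjusted p = 0.0729). PLAT, the tissue plasminogen activator, had 135, 142 and 114 counts against 91, 92 and 73, a difference of -0.55 (SE 0.119, adjusted p = 0.00570).

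**Figure D3:**
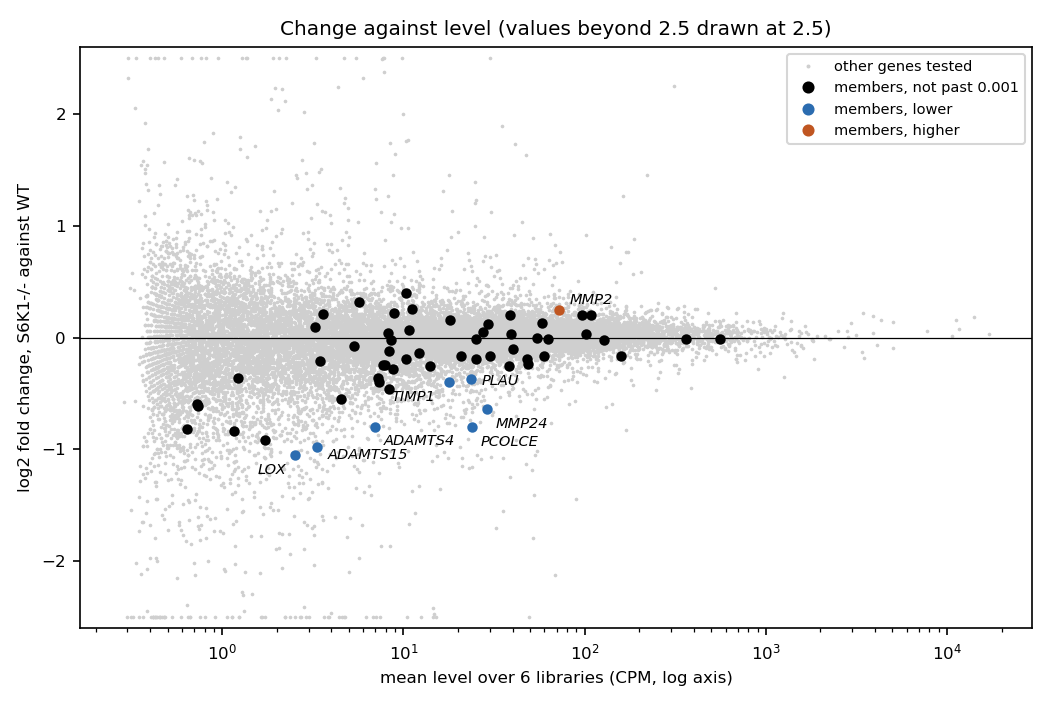
Log2 fold change of S6K1-/- against WT (vertical axis, values beyond 2.5 drawn at 2.5) against the mean level over the 6 libraries in CPM (horizontal axis, log scale), with a grey point for each other gene tested and larger points for the members. The 8 coloured members past the threshold span levels from LOX and ADAMTS15 at the low end to MMP2 at the high end, and SERPINH1 and P4HB, the most abundant members, lie near 0.

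The genes around these enzymes were read from lists, whose counts stand beside 2.54% lower and 1.42% higher among all genes tested. Of 37 collagen chains tested, the substrates of the enzymes, 10 fell and 1 rose, with a median log2 fold change of -0.19. COL1A1 fell from 80.2 ± 1.73 to 23.2 ± 1.75 CPM (-1.79, adjusted p = 6.95e-12) and COL1A2, which pairs with it in type I collagen, from 60.4 ± 1.53 to 42.6 ± 1.61 CPM (-0.50, adjusted p = 2.50e-06). COL8A1 fell by 1.60, and COL6A1 rose by 0.26 (SE 0.040, adjusted p = 3.03e-04). Of 22 other genes of collagen folding and secretion, 2 fell: CREB3L1, a transcription factor of procollagen genes (-0.56, adjusted p = 1.83e-04), and SPARC, a collagen-binding matricellular protein (-0.25, adjusted p = 9.31e-04), and the list's median was -0.04.

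Among plasminogen and protease regulators, ANXA2, a surface receptor of plasminogen and PLAT, fell from 133 ± 3.41 to 101 ± 1.10 CPM (-0.40, adjusted p = 4.16e-06). The urokinase receptor PLAUR differed by 0.04 (adjusted p = 0.818) and RECK, a membrane inhibitor of MMPs, by -0.01 (adjusted p = 0.970). Of 20 tested genes in a list of elastic fibre, proteoglycan and matricellular proteins, 3 fell: the matricellular CCN2 (-2.13) and THBS1 (-0.42, adjusted p = 8.36e-04) and the brain proteoglycan BCAN (-0.90, adjusted p = 7.93e-04). No elastic fibre gene of the list passed 0.001, and the median of the list was -0.20. Of 20 oxygen-responsive genes, a list read because LOX and the prolyl 4-hydroxylases are known hypoxia targets, 2 fell (CA12, -0.90, and SLC2A1, -0.59) and 1 rose (PDK1, 0.67), with a median of -0.09.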

How the data were processed

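Per the labels and methods, total RNA of H7 hESCs was made into libraries with a stranded mRNA kit. The authors trimmed the reads (Trim Galore 0.6.5), aligned them to GRCh38 (Bowtie2 2.4.5) and counted them per gene (featureCounts), and deposited whole-number counts without normalization. Reads that span a splice junction may be missing, because Bowtie2 makes no spliced alignments. The annotation release and strand setting are not given in the sources used here. A second table holds the authors' own comparison (DESeq2 1.37.4), with mean levels, fold changes, errors, statistics and p-values, and was not used.

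Genes were filtered with filterByExpr, scaled by TMM and compared with edgeR's quasi-likelihood test (edgeR 4.0.16, R 4.3.3) on all 6 libraries, in a model of genotype alone. Benjamini-Hochberg adjustment covered all 19521 tested genes, and the threshold of 0.001 is that of the study's methods. The common dispersion was 0.00216. CPM are scaled by TMM, and RPKM divide them by the exonic length of the gene in GENCODE 44. Percent differences are computed from the fitted log2 fold change. Intervals are normal 95% intervals from the SE of the log2 fold change. The steps were tested on simulated data.

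The members, roles, gene lists and motifs were chosen with earlier results of these data known. The naming rule takes every member past the threshold, in each role the 3 tested members with the smallest adjusted p and the one with the highest level per length, 43 genes in all, and up to 3 genes past the threshold in each other list. The other tested members, COL6A1, PLAUR, RECK, the antisense genes and the cell type markers were named after their values were seen. Promoters were taken from RefSeq (GRCh38.p14), which had an entry for 51 of the 75 members and 5 of the 8 past the threshold. MMP2, ADAMTS4 and ADAMTS15 had none. The alternatives were a Wald test and size factors from DESeq2 1.42.0, a threshold of 0.05, a block on the replicate number, leaving out each of the 6 libraries, and either no filter or a minimum of 10 counts per library. The counts of the list of plasminogen and protease regulators are not reported here.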

Additional observations from a re-analysis of the deposited data

How the results depend on the processing

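The same 7 lower members and 1 higher member passed with DESeq2's size factors, with DESeq2's Wald test and with at least 10 counts in every library. Without a filter, 11 were lower and 4 higher, adding ADAMTS5, P4HA2, PLOD2, PLOD3, ADAMTS7, MMP25 and TLL2, while over all genes 982 were lower and 591 higher, beside 496 and 278. At an adjusted p below 0.05, 21 were lower and 5 higher. With 1 library left out, 3 to 4 were lower and 0 to 1 higher, and PCOLCE, MMP24 and ADAMTS4 passed each time. Over all genes tested the lower calls then numbered 313 to 445, beside 496, so fewer libraries gave fewer calls throughout. Whether the replicate numbers pair the libraries is not known. The deviations of same-numbered libraries correlated at 0.197, 0.103 and 0.082 over 10484 genes. Those of differently numbered libraries correlated at -0.254 to 0.132, and WT replicate 2 was closest to S6K1-/- replicate 3 (0.132). So few correlations cannot decide it. With the replicate number as a block, 4 members were lower and 0 higher (423 and 241 over all genes), with adjusted p-values of 2.84e-06 for PCOLCE, 1.31e-05 for MMP24, 1.49e-04 for ADAMTS4, 7.07e-04 for LOX, 0.00112 for PLAU, 0.00122 for MMP2, 0.00148 for ADAMTS15 and 0.00202 for TIMP1. Over the 43 named members and 11 alternatives, 427 of 473 values kept their direction and side of the threshold, 31 became weaker, 7 stronger and 8 changed sign. The sign changes were all near 0 with 1 library left out: P4HB (range over omissions -0.0214 to 0.0026), PLOD1 (-0.0674 to 0.0485), ADAMTS14 (-0.0963 to 0.0478) and MMP14 (-0.0351 to 0.0145). The SE was widest for members with few counts, such as LOXL4 (0.321), and whether more reads would change a call was not tested. The cause of the differences between settings was not tested.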
